A study of Mus musculus with 12 samples.

Results

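T cell receptor (TCR) alpha CDR3s that carry aspartate or glutamate near their middle made up 44315 of the 163279 productive alpha rows of 12 thymocyte libraries, that is 27.1% of the rows and 27.5% of their reads. A row is 1 clonotype of 1 library, and productive means that the loop was read in full, in frame and without a stop. The middle was the residue at the length divided by 2, rounded up and counted from the first cysteine, and a chain was taken where either acidic residue lay within 2 positions of it. The members were therefore selected on their own residues, and the presence of an acidic residue in them is no result. They held 18745 distinct amino acid sequences, of which 86 occurred in all 12 libraries, and each library held between 2322 and 4978 of them. The libraries came from the thymus of wild-type (WT) and Chrna9-/- animals, the latter lacking a subunit of nicotinic acetylcholine receptors, and the age, strain and allele are not stated in the labels. Thymocytes with only CD4 (single-positive, CD4SP) or only CD8 (CD8SP) were sorted by those 2 surface proteins alone, 1000000 cells per CD4SP and 330000 per CD8SP sample. The 4 groups held 3 libraries each, from 2 pairs of male and 1 pair of female mice, and no treatment is named. Libraries of 1 genotype with the same number are treated as 1 mouse, which the labels do not state. The series title names negative selection, the loss of thymocytes with strongly self-reactive receptors, under cholinergic control.

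The alpha chain CDR3 is the loop formed where a V segment is joined to a J segment, with bases trimmed from both ends and others added between them. Its ends are coded by the segments, while its middle often holds the join, and the middle residues of both chains lie over the peptide that an MHC molecule presents. CD4SP cells have as a rule been selected on MHC class II and CD8SP cells on MHC class I. Aspartate and glutamate carry a negative charge, lysine and arginine a positive one. Every codon that begins with the bases GA and is in frame codes for aspartate or glutamate.

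An acidic middle can come ready-made from a J segment, and 9 of the 43 TRAJ segments whose untrimmed start could be read from the deposited joins carry an acidic codon in their part of the CDR3. Their germline parts are shown because they supply much of what follows, from the first base kept in untrimmed joins to the codon of the last CDR3 residue, with the acidic codons in capitals:
TRAJ30: tGACacaaatgcttacaaagtcatcttt
TRAJ33: tgGATagcaactatcagttgatctgg
TRAJ7: gGACtacagcaacaacagacttactttg
TRAJ45: atacaGAAggtgcaGATagactcaccttt
TRAJ11: tGACtcgggatacaacaaactcactttt
TRAJ47: GACtatgcaaacaagatgatcttt
TRAJ48: gccaactatggaaatGAGaaaataactttt
TRAJ38: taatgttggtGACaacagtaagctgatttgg
TRAJ18: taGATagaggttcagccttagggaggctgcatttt
In TRAJ30, TRAJ33, TRAJ7, TRAJ11, TRAJ47 and TRAJ18 the acidic codon is the first complete one of the segment, so even short trimming removes it. TRAJ45 has an acidic residue on either side of its glycine and alanine, and in TRAJ38 and TRAJ48 the residue lies further inside. On mm10 (RefSeq table of GRCm38.p6) TRAJ30 is the J segment at chr14:54189866-54189924, TRAJ33 lies at chr14:54185358-54185414, TRAJ7 at chr14:54211470-54211528 and TRAJ45 at chr14:54172831-54172890, all in the joining part of the alpha locus.

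V segments supply the residue in 2 ways, and 1 example of each kind is shown from the cysteine codon to the last germline base:
TRAV16N: tgtgctatgagaGAGgg
TRAV13-1: tgtgctttgGAAc
TRAV6-6: tgtgctctgggtGA
TRAV16N (chr14:53351090-53351621) carries a complete glutamate codon as residue 5, and TRAV13-1 (chr14:53545014-53545525) carries one as residue 4. TRAV6-6 (chr14:53516929-53517366) ends with the bases GA, so that whichever base follows an untrimmed end completes an acidic codon at residue 5. Among the 77 TRAV segments whose end could be read, 24 had a complete acidic codon, 21 ended in GA and 32 had neither. The 32 include TRAV9-2, read only to its cysteine codon, and TRAV7D-3, TRAV9-4 and TRAV9D-3, read to 11 bases, so that their class is less sure.

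The 7 chains described further on show how these parts combine, with the most frequent nucleotide join of each and its acidic codons in capitals:
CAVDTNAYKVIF: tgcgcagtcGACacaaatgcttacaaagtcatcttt
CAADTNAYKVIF: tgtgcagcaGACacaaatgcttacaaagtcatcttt
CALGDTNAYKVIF: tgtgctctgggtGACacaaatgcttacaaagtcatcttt
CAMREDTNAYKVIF: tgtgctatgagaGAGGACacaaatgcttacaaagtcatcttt
CAASDYSNNRLTL: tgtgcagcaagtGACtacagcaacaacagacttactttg
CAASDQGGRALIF: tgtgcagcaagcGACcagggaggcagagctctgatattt
CAASD chain of TRAV7-2 with TRAJ27: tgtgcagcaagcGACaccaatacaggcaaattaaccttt
The first 4 use TRAJ30 and match its aspartate codon in full, and the fourth has the glutamate codon of TRAV16N before it. CAASDYSNNRLTL matches the aspartate codon of TRAJ7. In 3 of these joins the V and J matches overlap, with -3 bases between them in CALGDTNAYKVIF and -1 in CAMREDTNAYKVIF and CAASDYSNNRLTL. There the GA (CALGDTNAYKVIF) or the G of the aspartate codon also matches V, and its source cannot be told apart. The last 2, with TRAJ15 and TRAJ27, have no acidic codon in either segment, and the GAC lies at the join.

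Productive alpha reads numbered 19847 to 33885 per library, so 1 read was 0.00295% to 0.00504% of a library, and reads carried no molecule tags. TCR libraries hold no readout of Chrna9, Cd4 or Cd8a, so neither the knockout nor the gate was checked directly. The invariant alpha chain of natural killer T (NKT) cells, TRAV11 with TRAJ18 at 15 residues, made up 5.26% to 8.49% of productive reads in CD4SP and 0.0495% to 0.0897% in CD8SP libraries. Its aspartate lies 3 positions before the middle, so none of its 10477 reads belongs to a member. The alpha chain of mucosal-associated invariant T cells gave 54 reads in all, of which 53 were member reads, and 0.686% to 1.16% of reads in a library had a delta segment. Distinct productive joins, members and others, were shared at 9.25% to 11.4% of the smaller library between different mice of 1 cell type, at 5.81% to 8.20% between cell types of different mice and at 7.08% to 7.92% between same-numbered libraries of the 2 cell types. The last 2 ranges lie over each other.

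Acidic-middle chains took a smaller part of the CD4SP than of the CD8SP repertoire. In WT CD4SP libraries they made up 19.8%, 18.9% and 19.8% of productive reads, and in Chrna9-/- CD4SP libraries 19.02%, 19.3% and 19.3%. In WT CD8SP libraries they made up 34.0%, 33.8% and 34.3%, and in Chrna9-/- CD8SP libraries 34.4%, 34.2% and 34.7%. All 6 CD8SP libraries lay above all 6 CD4SP libraries, and the share was lower in CD4SP in 6 of 6 mice. The group means were 19.5% ± 0.515 for WT and 19.2% ± 0.179 for Chrna9-/- in CD4SP, and 34.0% ± 0.235 and 34.4% ± 0.215 in CD8SP (SD, n = 3 each). The mean difference per mouse was 14.9 ± 0.436 percentage points (SD over 6 mice), a 1.77-fold ratio. No p-value is given for this total, since the members were chosen with earlier results of these data known. Reads measure RNA, so more cells with such chains and more alpha RNA per cell cannot be told apart. Counting each nucleotide clonotype once, the share was 21.2% ± 0.384 in CD4SP and 33.0% ± 0.271 in CD8SP (SD, n = 6).

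**Figure D1:**
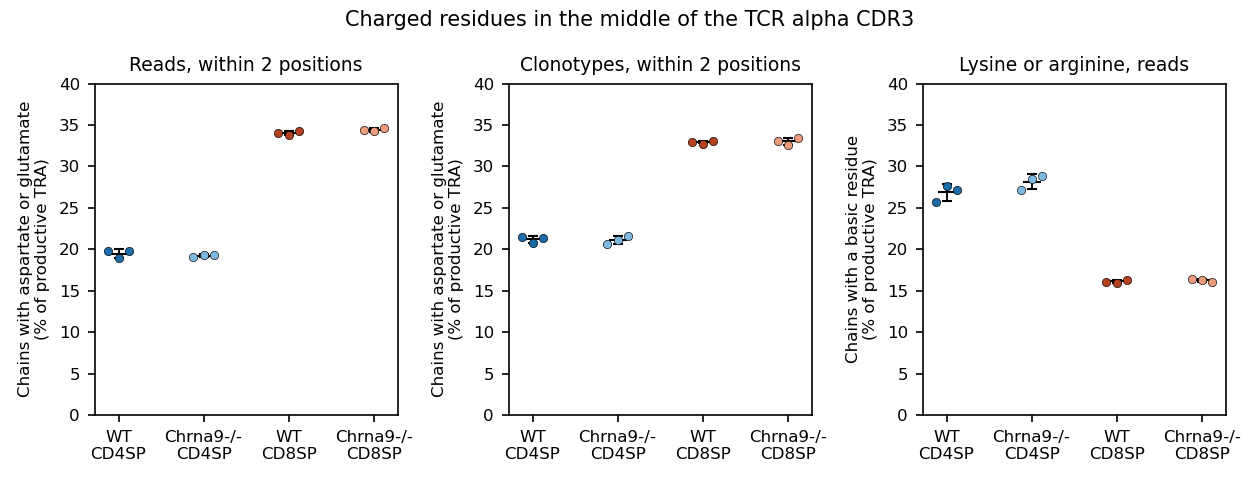
Share of productive alpha chains with an acidic residue within 2 positions of the CDR3 middle, by reads (left) and with each clonotype counted once (centre), and share of reads with lysine or arginine in the same 5 positions (right). Points are libraries, bars are group means with SD (n = 3); by reads the CD4SP libraries lie between 18.9% and 19.8% and the CD8SP libraries between 33.8% and 34.7%, while the basic share is higher in CD4SP.

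Aspartate in the 5 middle positions was found in a median of 13.4% of CD4SP and 24.8% of CD8SP reads, and glutamate in 6.71% and 12.5%, neither with overlapping libraries. Chains with 2 or more acidic residues there made up 1.10% to 1.48% of CD4SP reads. In CD8SP they made up 4.44% to 5.06%, a 3.74-fold higher mean, against 1.63-fold for chains with exactly 1. Lysine or arginine in the same positions went the other way, with 25.7% to 28.9% of CD4SP and 15.98% to 16.4% of CD8SP reads. The invariant NKT chain has an arginine there, and without it the basic share was 21.5% to 22.8% of CD4SP and 15.9% to 16.3% of CD8SP reads, still without overlap.

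The width of the window can be set beside chains just inside and just outside it. Chains whose acidic residues lay only at the outermost positions of the window took 12.4% ± 0.315 in CD4SP and 17.4% ± 0.279 in CD8SP (SD, n = 6). Chains with an acidic residue 3 positions away and none nearer took 14.1% ± 0.991 and 12.1% ± 0.232. Those outside include the invariant NKT chain, and without that chain they took 7.97% ± 0.180 in CD4SP and 12.02% ± 0.235 in CD8SP. With the window narrowed to 1 position on each side, the share was 6.98% ± 0.299 in CD4SP and 16.8% ± 0.327 in CD8SP, a 2.415-fold ratio.

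Every acidic residue at every middle position was rarer in CD4SP. Reads were counted for each amino acid at each of the 5 positions, and edgeR's quasi-likelihood test with the mouse as a block compared the cell types over 94 such rows, with p-values adjusted by Benjamini-Hochberg. All 10 aspartate and glutamate rows were lower in CD4SP, with log2 fold changes from -1.55 to -0.48 and a median of -1.09, where 42 of the 94 rows (44.7%) were called lower and 26 (27.7%) higher. DESeq2, whose size factors move the median of all rows from -0.14 to 0.00, called 31 rows lower and 29 higher, and the 10 acidic rows were lower under it too. These rows are parts of the share given above, so their sizes describe it and no p-value is given for them.

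Aspartate 2 positions before the middle, its most frequent place, ranged from 7.71% over a median of 7.88% to 8.17% of reads in CD4SP and from 11.4% over 11.8% to 12.2% in CD8SP (log2 fold change -0.58, SE 0.025). Aspartate 1 position before the middle ranged from 4.06% over 4.54% to 4.83% in CD4SP. In CD8SP it ranged from 10.6% over 10.9% to 11.4%, a larger change (-1.30, SE 0.029). Glutamate 2 positions before the middle ranged from 4.35% over 4.94% to 5.05% and from 8.45% over 8.60% to 9.18% (-0.84, SE 0.032). None of these 3 rows had overlapping cell types. At the middle itself both residues were scarcer, with aspartate at 0.787% ± 0.0996 in CD4SP and 2.04% ± 0.1004 in CD8SP (SD, n = 6), and glutamate at a median of 0.441% and 1.35%. Glutamate there had the largest change of the 10 rows (-1.55, SE 0.085). After the middle each residue stayed under 1% of reads in all 12 libraries, and its changes lay between -1.31 and -0.48.

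**Figure D2:**
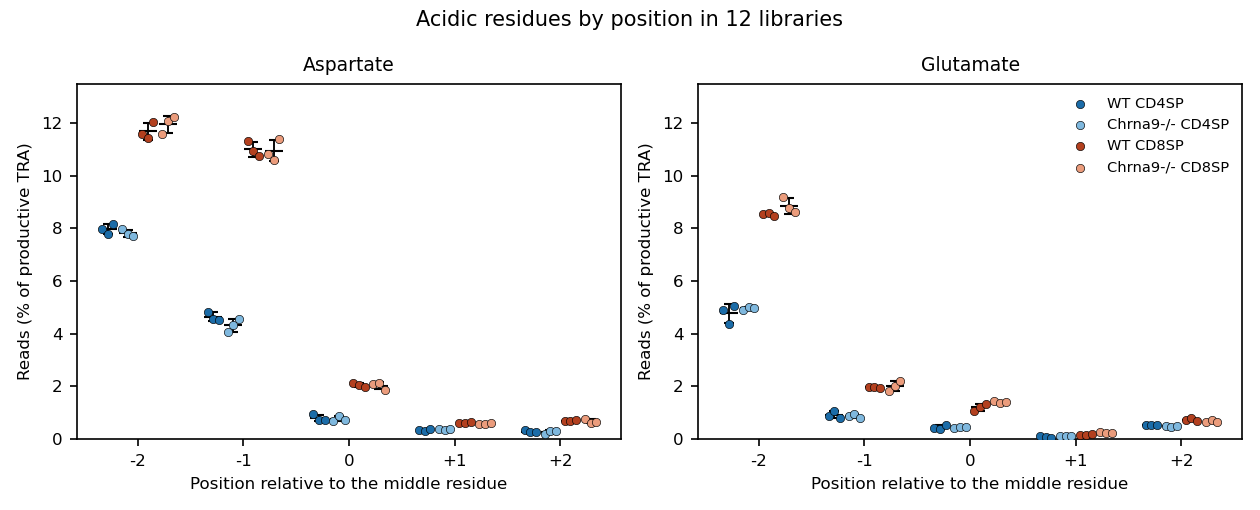
Reads with aspartate (left) or glutamate (right) at each position from 2 before to 2 after the CDR3 middle, in percent of productive alpha reads. Points are libraries and bars are group means with SD (n = 3); both residues lie mostly before the middle, and at each position the 6 CD8SP libraries lie above the 6 CD4SP libraries.

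The codon of an acidic middle residue was placed in V or J where all 3 of its bases were germline, and otherwise in the join. The join was the commonest source. In CD4SP 58.0% to 59.8% of member reads had an acidic codon at the join, a median of 34.3% had one in J and 10.5% one in V. In CD8SP the join took part in 51.8% to 54.6%, J in a median of 42.9% and V in 13.1%. Among members the join was thus named less often and both germline sources more often in CD8SP, without overlap. A chain with several acidic residues can count under more than 1 source. Chains with acidic codons at the join alone took 10.8% ± 0.160 of productive reads in CD4SP and 15.5% ± 0.401 in CD8SP (SD, n = 6), against 19.4% and 34.2% for all members. Of the acidic codons, 0.179% lay wholly in both germline segments at once and were counted with the join. A codon wholly in 1 segment was placed there even where the other segment matched some of its bases, and such codons were not counted apart.

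As a part of all productive reads, each source was larger in CD8SP. Germline J codons gave aspartate to 5.58% ± 0.276 of CD4SP reads and 12.5% ± 0.354 of CD8SP reads (SD, n = 6; log2 fold change -1.17, SE 0.029). Germline V codons gave glutamate to 1.77% ± 0.230 and 4.06% ± 0.0993 (-1.20, SE 0.050). Join codons gave aspartate to 7.86% ± 0.156 and 12.9% ± 0.389 (-0.71, SE 0.026) and glutamate to a median of 3.74% and 5.999% (-0.67, SE 0.040). Glutamate from J changed by -1.16 (SE 0.057) and aspartate from V, at most 0.481% of reads in any library, by -0.78 (SE 0.13). In this table of 52 residue and source rows, edgeR called all 6 acidic rows lower in CD4SP, where 26 rows (50.0%) were called lower and 9 (17.3%) higher. The 2 other scalings called 13 lower and 14 higher (DESeq2) and 16 lower and 14 higher (TMM factors), and the 6 acidic rows were lower under both.

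**Figure D3:**
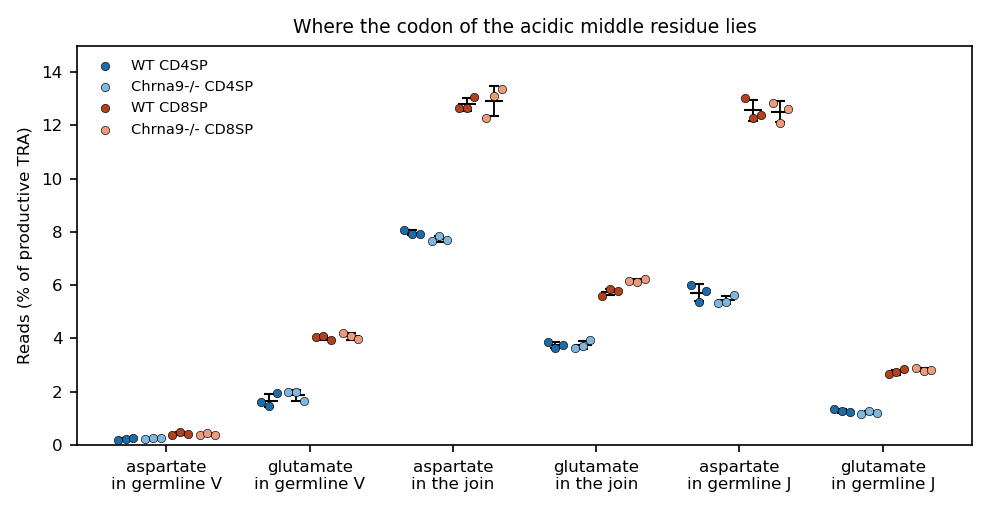
Reads with aspartate or glutamate in the 5 middle positions, in percent of productive alpha reads, by whether the codon lies in germline V, at the join or in germline J. Points are libraries and bars are group means with SD (n = 3); join and J codons supply most aspartate, and in each of the 6 columns the CD8SP libraries lie above the CD4SP libraries.

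Within the join, acidic codons whose first 2 bases matched V were the largest class. They made up 46.9% ± 1.395 of the reads of acidic join codons in CD4SP and 42.4% ± 1.23 in CD8SP (SD, n = 6), without overlap. Other codons whose last 2 bases matched J made up 31.3% ± 2.23 and 34.3% ± 0.630, and codons without any germline base 7.08% ± 0.581 and 8.01% ± 0.447, both with overlapping libraries. A codon that met both conditions was counted under V alone. How many did so was not counted, and the order of V before J may rest in part on this rule.

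TRAJ30 was the leading J segment of the members, with 11.5% of member reads on average over the 12 libraries. Acidic-middle TRAJ30 chains ranged from 1.69% over a median of 1.80% to 1.96% of productive reads in CD4SP and from 4.38% over 4.62% to 4.88% in CD8SP, without overlap (log2 fold change -1.34, SE 0.049). The other TRAJ30 chains, in which trimming or length leaves no acidic residue near the middle, did not pass the test (-0.09, edgeR adjusted p = 0.228). TRAJ33 followed with 7.18% of member reads, and its acidic chains ranged from 1.19% over 1.22% to 1.41% in CD4SP and from 2.62% over 2.70% to 2.85% in CD8SP (-1.12, SE 0.059), against 0.08 for its other chains (edgeR adjusted p = 0.414). TRAJ45, with 2 acidic codons, had an acidic middle in at least 97.2% of its reads in every library. Its use fell from 1.895% ± 0.1285 of reads in CD8SP to 0.649% ± 0.0622 in CD4SP (SD, n = 6), with a change of its acidic chains of -1.56 (SE 0.074). TRAJ7 changed less (-0.60, SE 0.066).

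All 9 TRAJ segments with an acidic codon had fewer acidic chains in CD4SP, with a median change of -1.11 and a range from -1.56 to -0.60. The table behind these counts holds 227 rows, in which each segment's reads are split into acidic and other chains, and 119 rows (52.4%) were called lower in CD4SP and 61 (26.9%) higher. DESeq2 called 80 lower and 80 higher and TMM factors 86 and 82, with the median of all rows moved from -0.30 to -0.04 and -0.03. Of the 7 acidic TRAJ segments whose other chains were tested, 1 had fewer of them in CD4SP and 2 more. TRAJ18, used by the invariant NKT chain, was among the latter.

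J segments without an acidic codon also fed the members, through the join or the V segment. TRAJ31, TRAJ26, TRAJ23 and TRAJ27 were among the 8 leading J segments. Acidic TRAJ26 chains ranged from 0.779% over 0.863% to 0.913% in CD4SP and around a median of 2.34% in CD8SP, without overlap (-1.46, SE 0.066), and acidic TRAJ23 chains changed by -0.74 (SE 0.070). Acidic TRAJ31 chains changed by only -0.18 (SE 0.060, edgeR adjusted p = 0.00423), a sign that turned under DESeq2 (0.10) and TMM factors (0.10), and acidic TRAJ27 chains did not pass the test (-0.03, edgeR adjusted p = 0.736) but were called higher in CD4SP by DESeq2 (0.25, adjusted p = 0.00157). TRAJ31 and TRAJ27 were both used more in CD4SP, at 6.94% ± 0.229 against 4.74% ± 0.154 and 4.43% ± 0.320 against 3.02% ± 0.168 of reads (SD, n = 6). Of the 33 tested J segments without an acidic codon, 26 had fewer acidic chains in CD4SP, 0 had more and 7 did not pass.

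Among V segments TRAV16N stood first, with 12.7% of member reads. Its acidic chains ranged from 1.40% over 1.59% to 1.75% of reads in CD4SP and from 5.675% over 5.86% to 6.39% in CD8SP (log2 fold change -1.91, SE 0.048), and its near copy TRAV16D-DV11 changed by -1.97 (SE 0.094). Both segments were used less in CD4SP whatever the middle: the chains of TRAV16N without an acidic middle changed by -1.37 and those of TRAV16D-DV11 by -1.54. Use of TRAV16N was 3.59% ± 0.195 of reads in CD4SP and 11.1% ± 0.361 in CD8SP. Up to 34.1% of a library's member reads had a second segment of equal score, so values of single V copies are uncertain. Over all productive reads, on which segment use rests, such ties made up 40.7% to 44.2% in CD4SP and 30.4% to 32.4% in CD8SP libraries.

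TRAV7-2, second with 8.78% of member reads, showed the opposite use. It took 16.5% ± 0.417 of CD4SP and 8.999% ± 0.420 of CD8SP reads, while its acidic chains did not pass the test (2.13% ± 0.122 and 2.24% ± 0.140 of reads, -0.07, edgeR adjusted p = 0.255), although DESeq2 and TMM factors gave 0.21 (with TMM factors, edgeR adjusted p = 0.000374). Acidic chains of the GA-ending TRAV6-6 changed by -0.81 (SE 0.057) and those of TRAV6D-7 by -0.53 (SE 0.071), and those of TRAV7-5 and TRAV7D-5, which have neither kind of end, by -1.05 and -1.10 (SE 0.062 and 0.083). TRAV6-5, also GA-ending, stood at 0.00 (edgeR adjusted p = 0.956), and DESeq2 gave it 0.27 (adjusted p = 0.0100).

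The largest falls of acidic chains in CD4SP, among V and J segments with a mean share of at least 0.1% of reads, were in TRAV3-3 (-2.60), TRAV16D-DV11, TRAV16N, TRAV13-2 (-1.89) and TRAV3D-3 (-1.76). The largest rises were in TRAV14D-3-DV8 (1.97), TRAV4D-4 (1.97), TRAV4-2 (1.42), TRAV4-4-DV10 (0.71) and TRAV14D-2 (0.34). In each of these 5 the chains without an acidic middle rose as well, by 0.42 to 2.26. Of 67 tested V segments, 44 had fewer acidic chains in CD4SP, 6 had more and 17 did not pass; by kind of end, 13 of 19 with an acidic codon, 13 of 21 ending in GA and 15 of 24 with neither had fewer.

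Use of a segment and the acidic share among its own chains are separate quantities, and the second was tested for each segment as the ratio of acidic to other reads. The segments cut the share that the members were chosen by, and a read counts under both its V and its J segment. The calls, like those of the acidic segment rows above, thus describe where the difference lies and are no separate support for it. In 95 of 107 tested segments (88.8%) the acidic share was lower in CD4SP, in 0 (0.0%) it was higher, with 95 at an unadjusted p under 0.05 by edgeR, and the median log2 change of the ratio was -0.88. All 33 tested J segments without an acidic codon were among the 95, as were 6 of 7 with one, 22 of 24 V segments with neither kind of end, 16 of 19 with an acidic codon and 16 of 21 ending in GA. Within TRAJ30 the acidic share ranged from 55.8% over 58.3% to 63.1% in CD4SP and from 75.1% over 76.9% to 80.4% in CD8SP (-1.26, SE 0.091). Within TRAV7-2 it ranged from 11.7% over 13.1% to 14.1% and from 22.8% over 25.1% to 27.3% (-1.15, SE 0.069). Within TRAV16N it was 44.02% ± 2.84 and 53.3% ± 1.82 (SD, n = 6; -0.54, SE 0.079). TRAJ48, whose glutamate lies further inside its part of the CDR3, did not pass (62.3% ± 2.64 and 60.3% ± 2.55, 0.13, edgeR adjusted p = 0.373).

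The 5 largest within-segment falls were in TRAV11 (-3.61, SE 0.14), TRAJ18 (-3.38, SE 0.12), TRAV12D-1 (-2.06, SE 0.51), TRAV7-6 (-1.91, SE 0.19) and TRAV10 (-1.85, SE 0.13). TRAV11 and TRAJ18 form the invariant NKT chain, whose reads count among their other chains. Without that chain TRAV11 stood at 0.08 (edgeR adjusted p = 0.684) and TRAJ18 at -1.28 (SE 0.15), and 94 segments were lower in all.

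**Figure D4:**
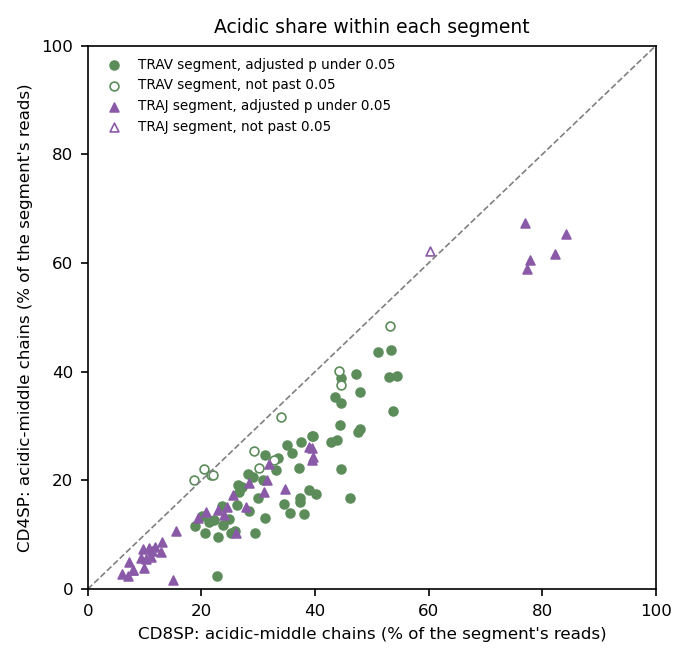
Acidic-middle chains in percent of a segment's own reads, mean of 6 CD8SP libraries (x axis) against mean of 6 CD4SP libraries (y axis), for the 107 tested TRAV and TRAJ segments; the dashed line marks equal shares. Filled symbols, 95 of 107, passed an adjusted p of 0.05, and all of these lie below the line.

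Split in this way, the difference of 14.9 points per mouse divided into -5.17 ± 0.463 points from J segment use and -9.71 ± 0.252 points from the acidic share within J segments, as CD4SP minus CD8SP (SD over 6 mice). Split by V segment, -3.58 ± 0.354 points came from use and -11.3 ± 0.430 from within. Split by pairs of V and J, an alternative added after the data were seen, -7.08 ± 0.586 points came from use of the pairs, -6.87 ± 0.458 from within them and -0.92 ± 0.326 from pairs seen in only 1 of the mouse's libraries. Each split is arithmetic on the same shares, and no test was made.

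Chains without any of these germline sources (a V with neither kind of end and a J without an acidic codon) were also compared. Their acidic share ranged from 8.28% over 8.93% to 9.10% in CD4SP and from 12.7% over 13.4% to 14.3% in CD8SP, without overlap. Within J segments that carry an acidic codon the share was 36.9% ± 3.04 and 74.1% ± 0.807. Those segments include TRAJ18, and without the invariant NKT chain the share was 56.2% ± 2.09 and 74.3% ± 0.824, also without overlap. Within GA-ending V segments it was 34.7% ± 0.672 and 47.2% ± 1.06 (SD, n = 6).

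CDR3 length set which germline codons could reach the window. V codons hold a fixed distance from the first cysteine and J codons from the last residue, and residue 5 lies within the window only up to a length of 14. At 13 residues 21.0% ± 0.396 of CD4SP and 37.4% ± 0.646 of CD8SP reads had an acidic middle, and at 14 residues 24.2% ± 1.00 and 44.2% ± 0.682 (SD, n = 6). At 15 residues the share was 5.91% ± 0.717 and 23.1% ± 0.899, or 10.2% ± 1.23 and 23.2% ± 0.902 without the invariant NKT chain, which has that length. At 10 residues the cell types overlapped (17.45% ± 4.01 and 18.7% ± 2.52), as they did at 9, 11 and 18 residues. The means at 10 residues were 20.6% for WT and 14.3% for Chrna9-/- in CD4SP, and 20.3% and 17.1% in CD8SP (n = 3 each). At 17 residues the Chrna9-/- mean was the higher one in CD4SP (8.19% for WT and 11.8%). Genotypes were not tested by length. Chains of the TRAV16 family show the step: their acidic share was 67.0% ± 3.16 in CD4SP and 79.0% ± 2.27 in CD8SP up to 14 residues, and 16.8% ± 1.30 and a median of 30.6% from 15 residues on. When the split was made by length, the distribution of lengths gave -0.02 ± 0.253 of the -14.9 points between the cell types (SD over 6 mice). That part was 0.759 ± 0.137 of -13.5 points without the invariant NKT chain and 0.634 ± 0.0943 of -11.8 points with each clonotype counted once, against the direction of the whole.

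**Figure D5:**
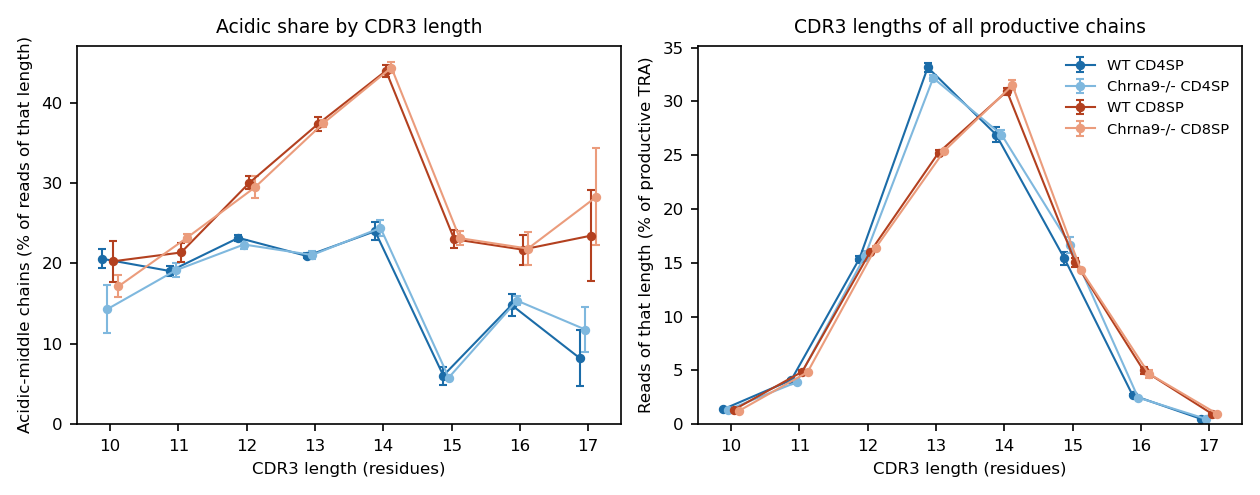
Acidic-middle chains in percent of the reads of each CDR3 length (left) and the lengths of all productive alpha reads (right), as group means with SD (n = 3). From 12 to 16 residues the CD8SP groups lie above the CD4SP groups, with the widest gap at 14 residues, and both drop at 15 residues.

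The 6 member chains with the largest mean share each occurred in all 12 libraries, and they did not share a direction. A chain here is an amino acid sequence, and its reads are summed over V segments. Among the chains shown above, these numbered from 3 for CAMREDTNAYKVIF to 27 for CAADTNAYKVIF. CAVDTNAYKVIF, made by 16 nucleotide joins, ranged from 0.0252% over a median of 0.0512% to 0.130% of reads in CD4SP and from 0.301% over 0.339% to 0.3785% in CD8SP, a 5.25-fold higher mean. These shares rest on few reads, from 1 to 126 for any of the 6 chains in a library. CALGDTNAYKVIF (0.150% ± 0.0371 and 0.188% ± 0.0290) and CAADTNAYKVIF (0.0982% ± 0.0235 and 0.124% ± 0.0284), with the same J end, overlapped between cell types. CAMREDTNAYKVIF, among the 3 chains with most CD8SP reads of the 287 member chains found in all 6 CD8SP libraries, had 26 reads in CD4SP and 314 in CD8SP and was missing from 1 CD4SP library. Its segment pair, TRAV16N with TRAJ30, ranged from 0.0389% over 0.0916% to 0.135% as acidic chains in CD4SP and from 0.614% over 0.765% to 0.808% in CD8SP, while TRAV7-2 with TRAJ30 overlapped (0.325% ± 0.0489 and 0.370% ± 0.0789).

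The other 3 leading chains, which begin with the same CAASD, were more frequent in CD4SP in 6 of 6 mice. CAASDYSNNRLTL ranged from 0.150% over 0.220% to 0.265% in CD4SP and from 0.0244% over 0.0535% to 0.0769% in CD8SP. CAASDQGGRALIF had 301 and 89 reads, and the CAASD chain shown above for TRAV7-2 with TRAJ27 had 293 and 54, neither with overlap. The reads of the latter were spread over 10 V segments, of which TRAV7-2 gave the most frequent join. These chains are a description of the most frequent members, which were picked by their share, and no test was made of them.

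Members and other chains were also compared in length, join and clone size. The window was placed by CDR3 length and read for its residues, so length and basic residues are not independent of the selection and are given with no test. Mean CDR3 length over member reads was 13.2 ± 0.0297 residues in CD4SP and 13.49 ± 0.00816 in CD8SP. That of other chains was 13.4 ± 0.0134 and 13.47 ± 0.0266, or 13.30 ± 0.0153 and 13.47 ± 0.0266 without the invariant NKT chain (SD, n = 6), so both kinds of chain were then shorter in CD4SP in 6 of 6 mice. Lysine or arginine in the window was found in 18.2% ± 0.364 of CD4SP and 13.2% ± 0.463 of CD8SP member reads. Other chains held it in 29.7% ± 1.43 and 17.7% ± 0.196, or 23.4% ± 0.635 and 17.7% ± 0.207 without the invariant chain. With each clonotype counted once, the values were 19.3% and 15.01% of members and 23.5% and 19.2% of other chains.

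Weighted by reads, member joins held 2.10 ± 0.0450 bases between V and J in CD4SP and 2.20 ± 0.0187 in CD8SP (SD, n = 6). Other joins held 2.10 ± 0.0280 and 2.35 ± 0.0185, or 2.25 ± 0.0287 and 2.35 ± 0.0183 without the invariant chain. With each clonotype counted once, member joins held 2.45 ± 0.0394 and 2.61 ± 0.0217 bases and other joins 2.59 ± 0.0194 and 2.68 ± 0.0234. No added base was found in 29.9% ± 1.26 and 28.5% ± 0.7254 of member reads and in 28.8% ± 0.555 and 27.1% ± 0.505 of other reads, the latter 25.8% ± 0.615 and 27.1% ± 0.501 without the invariant chain, where the direction turned. Member joins averaged 1.81 ± 0.0809 and 2.44 ± 0.0793 reads. Other joins averaged 2.02 ± 0.0913 and 2.31 ± 0.0692, or 1.86 ± 0.0835 and 2.31 ± 0.0692 without the invariant chain. Joins of 1 read gave 33.2% ± 2.99 and 18.4% ± 1.23 of member reads and 29.2% ± 2.57 and 20.2% ± 1.19 of other reads. Without the invariant chain they gave 31.9% ± 2.80 and 20.2% ± 1.19 of other reads. The number of sorted cells, given above, also differs between the cell types, and its part in reads per join was not tested. For each of these 4 measures all 6 mice differed in the same direction among members. The bases between V and J bear on CDR3 length and on codons at the join, by which many members were taken. Their mean and the joins without them are therefore not independent of the selection, and no p-value is given for either. An exact permutation test by sign flips over mice (two-sided) gave p = 0.03125 for reads per join and for joins of 1 read. It was the same after Benjamini-Hochberg adjustment and is the smallest that 6 mice allow. Whether members differed from other chains in any of the 4 differences was not tested.

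Between genotypes the acidic-middle share differed by less than 1 percentage point on average in either cell type. In CD4SP the Chrna9-/- library was below its WT pair in 2 of 3 pairs, with a mean difference of -0.26 ± 0.612 percentage points (SD over 3 pairs). Without the invariant NKT chain it was above in 2 of 3 pairs, with a mean difference of 0.0239 ± 0.625 points. In CD8SP it was above in 3 of 3 pairs, by 0.386 ± 0.0687 points, although the ranges of the 2 genotypes overlapped. No aspartate or glutamate row passed the test of genotype in either cell type. By position, the 10 rows had log2 fold changes of -0.15 to 0.59 in CD4SP and -0.15 to 0.56 in CD8SP, and by source the 6 rows lay between -0.09 and 0.19 and between -0.06 and 0.10. The row with the smallest p in CD4SP was aspartate 1 position before the middle (-0.11, SE 0.049, edgeR adjusted p = 0.234), with 4.83%, 4.55% and 4.53% of reads in WT and 4.06%, 4.31% and 4.57% in Chrna9-/-. In CD8SP it was glutamate 1 position after the middle, with 0.137%, 0.156% and 0.201% in WT and 0.264%, 0.238% and 0.240% in Chrna9-/- (0.56, SE 0.20, edgeR adjusted p = 0.641).

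In CD4SP, edgeR called 6 of 94 position rows (6.38%), 4 of 52 source rows (7.69%) and 2 of 227 segment rows (0.881%). None of these 12 was an acidic row, and the 2 segment rows were the chains of TRAV11 and TRAJ18 without an acidic middle. DESeq2 called 0, 2 and 1. In CD8SP and for the difference of the genotype effects between the cell types, edgeR and DESeq2 called 0 rows (0.0%) in all 3 tables. In CD8SP 5, 3 and 13 rows had an unadjusted p under 0.05 by edgeR and 4, 1 and 14 by DESeq2, and for the difference of effects 9, 2 and 8 and 5, 0 and 4.

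The acidic share within segments was called for 0 of 107 segments (0.0%) between genotypes in either cell type, with 9 in CD4SP and 6 in CD8SP at an unadjusted p under 0.05 by edgeR. The acidic rows of the 9 TRAJ segments with an acidic codon had a median change of -0.07 in CD4SP and -0.02 in CD8SP, against -0.02 and -0.01 over all segment rows. Among acidic segment rows in CD4SP, TRAJ47 had the smallest p (0.498% of reads in WT and 0.361% in Chrna9-/- CD4SP, -0.46, SE 0.15, edgeR adjusted p = 0.137), and they passed without Chrna9-/- CD4SP replicate 2 (-0.71, edgeR adjusted p = 0.0170). Glutamate from germline V, at 0.19 in CD4SP (edgeR adjusted p = 0.245), passed without WT CD4SP replicate 3 (0.33, edgeR adjusted p = 0.0272).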

How the data were processed

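The files used are 12 tables of TCR alpha and delta clonotypes, 1 per library. Per the labels' protocols, RNA of sorted thymocytes was made into SMARTer alpha/beta TCR libraries, sequenced on a MiSeq and assembled with MiXCR. Per the file headers, the authors deposited for each clonotype a count of reads and its fraction of all reads in the table; the fraction equalled the count over the total and was not used further. mm10 is the build in the submitters' processing notes. Reads carried no molecule tags here, so counts are not independent molecules.

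Kept were rows with a best TRAV and TRAJ hit and a CDR3 read in full, without frame shift or stop, and library size was their reads. Members and lists were chosen with earlier results of these data known. Reads were tabled by residue and position, by residue and source, and by segment with and without an acidic middle. These were fitted with edgeR 4.0.16 (R 4.3.3) by the quasi-likelihood test on all 12 libraries, after filterByExpr, with library size as the only scaling, the mouse as a block between cell types and the replicate number between genotypes, and Benjamini-Hochberg adjustment over each whole table at 0.05. The share within a segment was tested as an interaction, for segments with 10 reads of each kind in every group. Alternatives were DESeq2 1.42.0, TMM factors, other counting and filters, and single libraries left out. Tables were made with Python 3.11.15 (pandas 2.3.3), and the fits were tested on simulated data first. Germline ends were the commonest untrimmed end among at least 20 joins, held by at least 50% of them.

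Named were all acidic residue rows, the 8 TRAJ and 8 TRAV segments with most member reads, the 5 largest changes per direction (mean share of at least 0.1%), TRAJ segments with an acidic codon, the 6 most frequent member chains and the 3 found in most libraries of each cell type, with ties, 136 chains in all 6 CD4SP and 287 in all 6 CD8SP libraries, broken by reads (a step the rule did not state); others were named after their values were seen. The design names pairs of mice, so the blocks were kept, although deviations of same-numbered libraries correlated between -0.27 and 0.24 across genotypes. Across the cell types of 1 genotype, where the same number is taken as 1 mouse, they correlated between -0.12 and 0.40. Whether replicates are separate animals beyond these pairs is not given, and p-values measure the spread between these samples.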

Additional observations from a re-analysis of the deposited data

How the results depend on the processing

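The difference in acidic-middle share, -14.9 points, was -11.8 with each clonotype counted once, -13.5 without the invariant NKT chain, -16.3 without clonotypes of 1 read, -11.4 with the other middle for even lengths, -9.87 within 1 position, and -14.96 to -14.78 with single libraries left out. The Chrna9-/- minus WT share in CD8SP was 0.1199 with clonotypes counted once, 0.467 without single reads, 0.228 with the other middle, 0.2004 within 1 position and 0.265 to 0.4997 with single libraries left out; in CD4SP that range was -0.56 to -0.10. The part within TRAJ became -8.38 with clonotypes counted once, -6.87 by segment pair and -14.85 by length; use of TRAJ became -3.43, -7.08 and -0.0195, and -4.02 without the invariant chain. The part within TRAV became -10.2 and -10.8, and use of TRAV -1.61 and -2.68, with clonotypes counted once and without the invariant chain. Of calls between genotypes in CD4SP, the 6 by position became 0 with DESeq2, with clonotypes counted once and without the invariant chain, and 3 with the other middle or without single reads. The 4 by source became 2 with DESeq2, without the replicate block and with that cell type's libraries alone, and 0 with clonotypes counted once, without single reads and without the invariant chain. The 2 by segment became 1 with DESeq2 and without single reads, and 0 with clonotypes counted once, without the replicate block, without the invariant chain and without tied segments. Without tied segments 1 within-segment share was called, and with the other middle 1 genotype effect differed between cell types. With single libraries left out these counts ran from 1 to 7, 0 to 5, 0 to 3 and 0 to 0, with 0 to 1 within segments in CD8SP and 0 to 1 and 0 to 2 differences of effects by position and source; between cell types they ran from 65 to 69, 31 to 34, 173 to 181 and 84 to 94. The cause of these moves was not tested.

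All 10 position rows and 6 source rows of acidic residues kept direction and call between cell types. Signs turned for acidic TRAJ27 (0.252 with DESeq2, 0.249 with TMM factors, 0.00102 in Chrna9-/- mice only, 0.0105 without single reads, 0.0731 without the invariant chain, 0.0450 without ties, -0.0560 to 0.0045 with single libraries left out), TRAJ31 (0.0983 and 0.0951 with DESeq2 and TMM factors), TRAV6-5 (0.274, 0.270, 0.106 in WT mice only, 0.0262, 0.0946, 0.242 under the same 3 settings as TRAJ27, and -0.0715 to 0.0427 with single libraries left out) and TRAV7-2 (0.212, 0.208, 0.0329 without the invariant chain), and for the share within TRAV11 (0.0772 without that chain), TRAV14D-2 (0.0845 without single reads, -0.137 to 0.0295 with single libraries left out) and TRAV14D-3-DV8 (-0.42 with clonotypes counted once). Without the invariant chain, an alternative added after the data were seen, CD4SP minus CD8SP in other reads with no added base turned from 1.69 to -1.30 points. With each clonotype counted once, that difference among other joins was -0.41 points.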
